A study of Mus musculus with 15 samples.

Results

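Expression of 10 brown and beige fat genes, Ucp1, Ppargc1a, Ppargc1b, Prdm16, Dio2, Elovl3, Ebf2, Cox8b, Cox7a1 and Cidea, was followed gene by gene through adipogenesis of mouse embryonic fibroblasts (MEFs). The 10 genes were taken by name from the 46603 genes counted, as known markers and regulators of heat-producing fat, and not by their levels in these cells. MEFs were wild-type cells from 10.5-day BALB/c embryos and were grown in DMEM with 10% FBS. MEFD0 was sampled at day 0, before treatment. Cells of MEFD3plu had spent 3 days in differentiation medium, which added 0.5 mM IBMX (a phosphodiesterase inhibitor), 10 µg/mL insulin, 1 µM dexamethasone (a glucocorticoid) and 10 µM rosiglitazone (a PPARγ agonist), and cells of MEFD5plu had been returned from it to growth medium until day 5. MEFD3min and MEFD5min were untreated cells of the same days. Each of the 5 conditions had 3 samples, numbered 1, 3 and 4. RNA of each sample was sequenced, and the total count per sample ranged from 24030558 to 37281126.

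Brown and beige adipocytes burn fuel to release heat, mainly through UCP1, a carrier in the inner mitochondrial membrane that lets protons leak back past ATP synthase. In brown fat, noradrenaline acts through beta-adrenergic receptors and cAMP to raise Ucp1, Ppargc1a and Dio2, while factors such as EBF2 and PRDM16 set the identity of the cell together with PPARγ. White adipocytes share the lipid-storage programme with brown ones and express little of the heat-producing set.

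All 10 genes passed the edgeR filter on low counts, as did 15997 genes in all. Elovl3, Cox8b and Cidea had enough counts to pass only in treated conditions, so they could hardly be called lower in treated cells. Levels are given as CPM (counts of a gene brought to 1 common library total, with totals scaled by the TMM method). Single genes are compared in level with each other as FPKM (CPM per kilobase of exon). Sums over marker genes are in CPM, not corrected for exon length, also where a gene is named beside them. Log2 fold changes and their standard errors (SE) came from 1 edgeR quasi-likelihood fit over the 15 samples, and a gene was called when its Benjamini-Hochberg adjusted p over all genes tested was under 0.05. The study's statistical methods refer to independent experiments without naming the RNA-Seq samples, and the labels do not say that samples of a condition came from separate cultures. The p-values therefore measure the spread between samples, which may be technical.

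The labelled cell type was checked against marker genes. The 8 general adipocyte markers, among them Adipoq and Fabp4, summed to 27.7 to 41.0 CPM in the untreated samples, 6492 to 8299 CPM in MEFD3plu and 7917 to 9382 CPM in MEFD5plu. The 7 fibroblast markers, such as Col1a1 and Vim, summed to between 8239 and 25582 CPM in every sample, treated ones included. Markers of other cell types were far below the fibroblast markers in sum but not absent. The 4 neural markers summed to 40.8 to 44.6 CPM in MEFD0 and 7.56 to 7.99 CPM in MEFD3plu. The 14 skeletal muscle markers summed to 1.89 to 11.97 CPM, among them Actn3 (condition means 1.25 to 5.48 CPM) and Tnni2 (0.127 to 5.00 CPM), while Myod1, Myf5 and Tnnc2 had no count in any sample. The 6 cardiac markers summed to 0.338 to 2.69 CPM, mainly from Tnni3 and Tnnt2, with Myh6 and Actc1 at 0 throughout. The 6 macrophage markers summed to 2.07 to 6.97 CPM, mainly from Cd68 and Lyz2, with Adgre1 at 0 throughout. Their part in the values of the 10 genes was not tested.

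Most of the 10 genes were called between treated and untreated cells on each day. So were 56.1% of all genes tested at day 3 and 50.5% at day 5. Ppargc1a, Dio2, Elovl3 and Cidea were called higher in treated cells on both days, and Ucp1 and Ebf2 were called lower at day 3 and higher at day 5. The share of all genes called on both days was not computed. At day 3 (MEFD3plu/MEFD3min), Ppargc1a, Ppargc1b, Dio2, Elovl3 and Cidea were higher in treated cells and Ucp1 and Ebf2 were lower, that is 5 genes higher and 2 lower. Of all genes tested, 56.1% were called in this comparison, 28.0% higher and 28.0% lower. At day 5 (MEFD5plu/MEFD5min), Ucp1, Ppargc1a, Dio2, Elovl3, Ebf2, Cox8b, Cox7a1 and Cidea were higher and no gene was called lower, so 8 were higher and 0 lower. Of all genes tested, 50.5% were called, 26.3% higher and 24.2% lower. The median log2 fold change of the 10 genes was 2.11 at day 3 and 1.67 at day 5, while that of all genes tested was -0.00057 and 0.010. Elovl3, Cox8b and Cidea, which passed the filter only through treated conditions, are part of these counts and medians. In bulk RNA, fewer cells of a type and less RNA per cell cannot be told apart. The treated conditions also held far more adipocyte marker RNA than the untreated ones, and the part of that difference in these values was not tested.

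**Figure D1:**
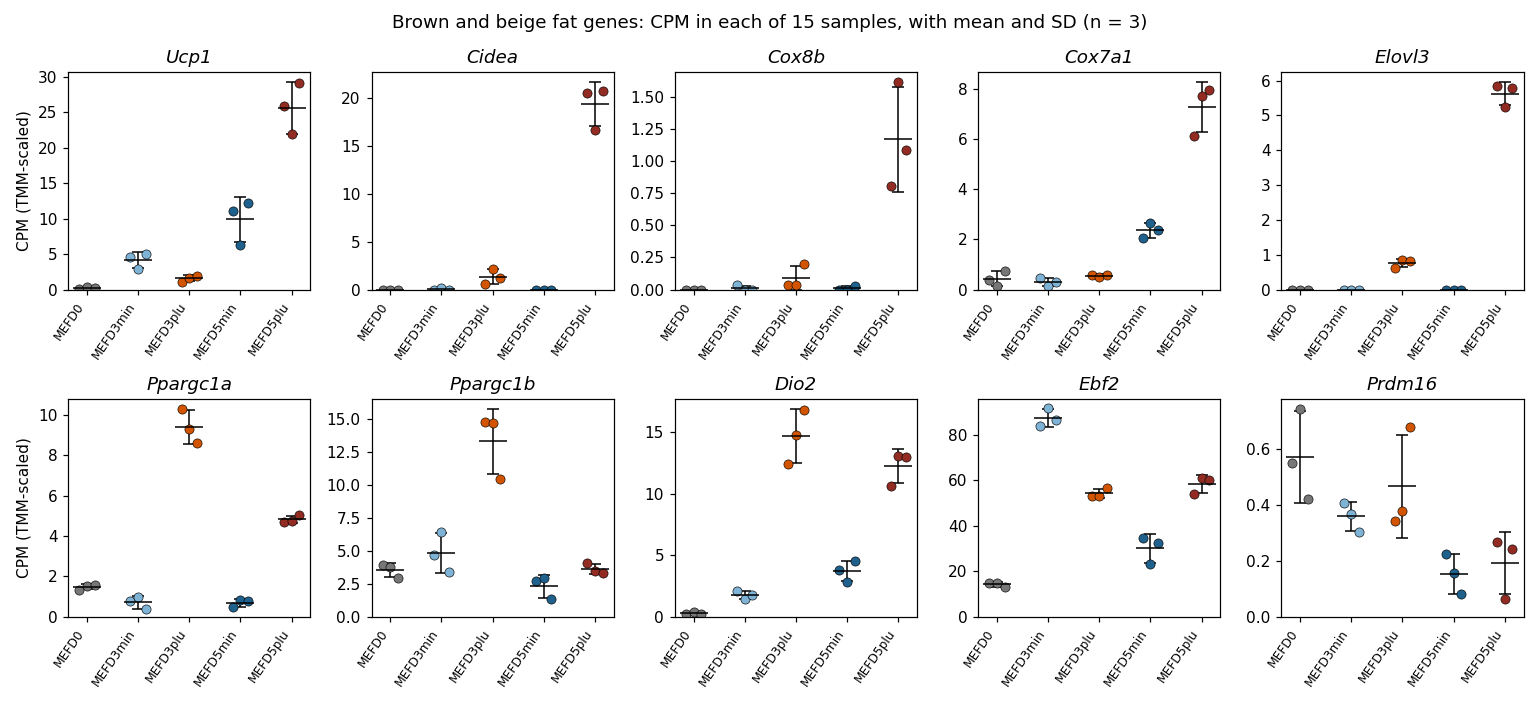
CPM of each of the 10 genes (vertical axes, linear, starting at 0 and scaled gene by gene) in the 5 conditions. Points are the 3 samples of a condition, the long bar is their mean and the whiskers are the SD; Ucp1, Cidea, Cox8b, Cox7a1 and Elovl3 (upper row) stood highest in MEFD5plu, while Ppargc1a, Ppargc1b and Dio2 (lower row) stood highest in MEFD3plu.

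The differentiation medium holds IBMX, which raises cAMP. Promoters were therefore searched for the cAMP response element (CRE), the DNA sequence that CREB-type factors bind. RefSeq promoter sequences of GRCm38.p6 matched 6 of the 10 genes by symbol (Ucp1, Ppargc1a, Dio2, Cox8b, Cox7a1 and Prdm16). The 250 bases before the RefSeq transcription start are shown for Ppargc1a, Dio2, Ucp1 and Cox8b. At day 3, Ppargc1a and Dio2 were higher and Ucp1 was lower in treated than in untreated cells. Cox8b was detected almost only in MEFD5plu. Capitals mark matches on either strand to the full CRE (TGACGTCA), to its shorter core (TGACG, or CGTCA on the other strand, which the full CRE also contains) and to the TATA box (TATAAA). Positions are counted backwards from the start, so that the base just before it is -1. The windows are chr8:83290098-83290347 on the plus strand for Ucp1, and chr5:51567726-51567975, chr12:90739039-90739288 and chr7:140900447-140900696 on the minus strand for Ppargc1a, Dio2 and Cox8b.
Ucp1: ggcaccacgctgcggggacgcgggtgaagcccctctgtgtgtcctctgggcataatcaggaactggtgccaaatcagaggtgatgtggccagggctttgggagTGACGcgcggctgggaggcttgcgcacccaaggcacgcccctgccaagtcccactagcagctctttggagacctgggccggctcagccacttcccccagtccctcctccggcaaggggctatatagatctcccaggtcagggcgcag
Ppargc1a: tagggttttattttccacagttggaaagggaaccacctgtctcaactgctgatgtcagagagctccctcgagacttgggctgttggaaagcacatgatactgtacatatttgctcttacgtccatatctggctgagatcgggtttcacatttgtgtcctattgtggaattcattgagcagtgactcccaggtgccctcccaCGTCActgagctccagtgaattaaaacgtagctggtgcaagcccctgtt
Dio2: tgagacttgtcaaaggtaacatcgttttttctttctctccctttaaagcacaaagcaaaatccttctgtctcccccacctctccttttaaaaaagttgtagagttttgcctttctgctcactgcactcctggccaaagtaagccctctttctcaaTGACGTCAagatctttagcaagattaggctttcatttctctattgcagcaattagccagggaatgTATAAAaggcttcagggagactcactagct
Cox8b: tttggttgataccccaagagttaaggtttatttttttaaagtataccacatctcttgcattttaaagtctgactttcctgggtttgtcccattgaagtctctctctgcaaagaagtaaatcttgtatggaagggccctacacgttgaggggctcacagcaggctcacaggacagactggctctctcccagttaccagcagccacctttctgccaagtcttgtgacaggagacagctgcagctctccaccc

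The Dio2 window held a full CRE that begins at -95 and a TATA box at -30. The shorter core began at -147 in Ucp1 and, on the other strand, at -49 in Ppargc1a. The windows of Cox8b and, not shown, of Cox7a1 and Prdm16 held no match to any motif searched. Of 32851 RefSeq promoters, 1.55% held the full CRE in the same 250 bases, 17.8% the shorter core and 12.4% the TATA box. No match to a PPAR element (the direct repeat DR1, in 0.0335% of promoters) or to an ERR element (TCAAGGTCA, in 0.387%) was present in these windows. In the GENCODE annotation used here for positions and exon lengths, Dio2 on the minus strand starts at 90738438. The Dio2 window begins only at 90739039 and does not abut that start, so its positions hold for the RefSeq start alone. These matches describe letters in a window and not bound sites, and their part in the levels of these genes was not tested.

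Ucp1, the uncoupling protein that defines thermogenic fat, was lower in treated than in untreated cells at day 3 and higher at day 5. Its gene (ENSMUSG00000031710) lies on chromosome 8 from 83290352 to 83298452 on the plus strand, with 1636 bases of exon. In replicates 1, 3 and 4, Ucp1 stood at 0.0686, 0.398 and 0.195 CPM in MEFD0, which were 2, 15 and 7 counts. It stood at 4.54, 2.84 and 4.98 CPM in MEFD3min and at 1.13, 1.63 and 1.95 CPM in MEFD3plu. Its level at day 5 was 11.1, 6.31 and 12.3 CPM in MEFD5min and 25.8, 21.9 and 29.1 CPM in MEFD5plu. No condition overlapped another in Ucp1: every treated sample was below every untreated sample at day 3 and above every untreated sample at day 5. The log2 fold change was -1.37 (SE 0.305, adjusted p = 0.00100) in MEFD3plu/MEFD3min and 1.36 (SE 0.243, adjusted p = 0.000188) in MEFD5plu/MEFD5min. The effect at day 3 minus that at day 5 was -2.73 (SE 0.389, adjusted p = 2.28e-05), so the effects differed between the days.

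Ucp1 also rose in untreated culture. Against MEFD0 the log2 fold change was 4.12 in MEFD3min (adjusted p = 1.82e-07) and 5.40 in MEFD5min (adjusted p = 6.73e-09), and MEFD5min exceeded MEFD3min by 1.28 (adjusted p = 0.000774). Without MEFD0 replicate 3, which had the most Ucp1 counts of that condition, the first of these values was 4.85 and the second 6.13. In treated cells Ucp1 rose as well: MEFD3plu exceeded MEFD0 by 2.75 on the log2 scale (SE 0.468, adjusted p = 6.40e-05). Between MEFD3plu and MEFD5plu, across the removal of the differentiation medium, Ucp1 rose by 4.01 on the log2 scale (adjusted p = 4.74e-09). From the highest down, the conditions ran MEFD5plu, MEFD5min, MEFD3min, MEFD3plu and MEFD0, and each differed from the next beyond the spread. The adipocyte markers summed to at most 41.0 CPM in the untreated samples, where Ucp1 reached 12.3 CPM, and to at least 6492 CPM in MEFD3plu, where Ucp1 reached 1.95 CPM.

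Cidea and Elovl3, which act on lipid droplets and on very long chain fatty acids, had few or no counts in untreated cells and rose on both days. Cidea codes for a protein that fuses lipid droplets and marks brown fat in mice (ENSMUSG00000024526, chromosome 18 from 67343604 to 67367785, plus strand, 1115 bases of exon). It had no count in the 3 samples of MEFD0 or of MEFD5min, and 0, 4 and 0 counts in MEFD3min. It stood at 0.580, 2.13 and 1.24 CPM (17, 68 and 44 counts) in MEFD3plu and at 20.5, 16.7 and 20.7 CPM (689, 517 and 688 counts) in MEFD5plu. Every treated sample was above every untreated sample on both days, and every MEFD5plu sample was above every MEFD3plu sample.

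At day 5, Cidea was at least 206-fold higher in treated cells, a bound computed with 3 counts per library in place of the 0 counts of MEFD5min (adjusted p = 3.35e-08). At day 3 the fitted log2 fold change was 4.89 (SE 0.729, adjusted p = 7.06e-05), and the MEFD3min counts behind it were all from replicate 3. That sample also held 27 counts of Adipoq, against 0 and 1 in replicates 1 and 4, and 67 of Cd36, against 12 and 10. Without it, MEFD3min had no Cidea count and MEFD3plu was at least 13.5-fold higher. The fit called the effects of both days different (adjusted p = 0.0251), but the size of that difference has no estimate because MEFD5min had no count. The call rests on the same 4 counts and was lost without that sample. From MEFD3plu to MEFD5plu, Cidea rose by 3.86 on the log2 scale (adjusted p = 7.25e-07).

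Elovl3 codes for an elongase of very long chain fatty acids that is strongly expressed in brown fat in the cold (ENSMUSG00000038754, chromosome 19 from 46131897 to 46135694, plus strand, 1975 bases of exon). It had no count in any of the 9 untreated samples. It stood at 0.614, 0.846 and 0.818 CPM (18, 27 and 29 counts) in MEFD3plu and at 5.84, 5.25 and 5.79 CPM (196, 163 and 192 counts) in MEFD5plu. Treated cells were thus at least 8.16-fold higher at day 3 (adjusted p = 4.41e-06) and at least 59.9-fold higher at day 5 (adjusted p = 6.78e-08). The rise from MEFD3plu to MEFD5plu was 2.88 on the log2 scale (adjusted p = 3.66e-06), and the difference between the effects of both days could not be estimated because both untreated conditions were at 0. The antisense gene Pitx3 overlaps 0.506% of the Elovl3 exon bases.

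**Figure D2:**
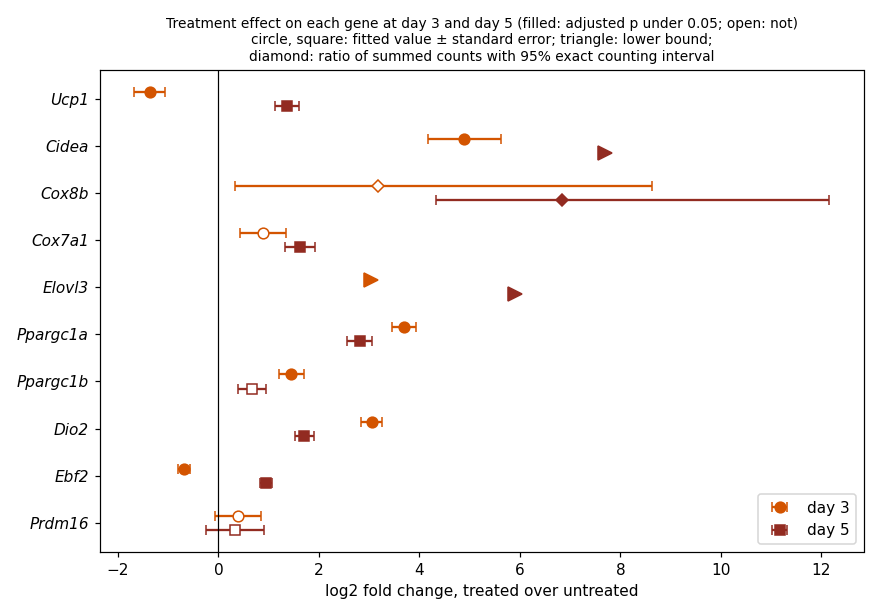
Log2 fold change of treated over untreated cells (horizontal axis) for each gene at day 3 and day 5. Circles and squares are fitted values with SE, triangles are lower bounds against untreated cells with no count, and diamonds (Cox8b) are ratios of summed counts with 95% exact counting intervals; filled symbols passed an adjusted p of 0.05, and Ucp1 and Ebf2 lie to the left of 0 at day 3 and to its right at day 5.

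The cytochrome c oxidase subunits Cox7a1 and Cox8b, tissue-restricted isoforms found in brown fat, heart and skeletal muscle, rose at day 5 and did not pass the test at day 3. Cox7a1 (ENSMUSG00000074218, chromosome 7 from 30184144 to 30186078, plus strand, 535 bases of exon) stood at 0.377, 0.159 and 0.754 CPM in MEFD0. It stood at 0.470, 0.140 and 0.303 CPM in MEFD3min and at 0.580, 0.501 and 0.592 CPM in MEFD3plu. Cox7a1 reached 2.07, 2.65 and 2.38 CPM in MEFD5min and 6.14, 7.73 and 7.99 CPM in MEFD5plu. The day 5 conditions overlapped neither each other nor any earlier condition, while MEFD0 overlapped both day 3 conditions, which did not overlap each other. Cox7a1 was higher in treated cells by a log2 fold change of 1.63 at day 5 (SE 0.297, adjusted p = 0.000232). At day 3 the value was 0.89 (SE 0.462, adjusted p = 0.113), and without MEFD3min replicate 1 it was 1.36 (adjusted p = 0.0445). In untreated cells it rose by 2.96 from MEFD3min to MEFD5min (adjusted p = 1.24e-05), and in treated cells by 3.70 from MEFD3plu to MEFD5plu (adjusted p = 1.13e-07). MEFD5min exceeded MEFD3plu by 2.07 (adjusted p = 8.44e-05), while MEFD3plu, MEFD0 and MEFD3min, next in the order, did not pass the test as neighbours.

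Cox8b (ENSMUSG00000025488, chromosome 7 from 140898945 to 140900446, minus strand, 360 bases of exon) was the least counted of the genes that rose. It had no count in MEFD0, 1, 0 and 0 counts in MEFD3min, 1, 1 and 7 counts in MEFD3plu, and 0, 0 and 1 counts in MEFD5min. In MEFD5plu it had 27, 50 and 36 counts, or 0.804, 1.61 and 1.09 CPM, above every other sample. The ratio of summed counts, corrected for depth, was 114 at day 5 (95% exact counting interval 20.0 to 4535, 113 counts against 1, adjusted p of the fit 1.94e-05). At day 3 it was 9.05 (interval 1.25 to 397, 9 counts against 1). The fitted log2 fold change at day 3 was 2.76 (SE 1.21, adjusted p = 0.0654), and its adjusted p was 0.0470 without MEFD3min replicate 1, 0.0495 without MEFD3plu replicate 1 and 0.0448 without MEFD3plu replicate 3. These intervals cover counting error only. The single MEFD5min count was in replicate 4, and without it that condition had none. From MEFD3plu to MEFD5plu, Cox8b rose by 3.61 (SE 0.618, adjusted p = 0.000124), and by 5.00 without MEFD3plu replicate 4, which held 7 of the 9 counts. The 14 skeletal muscle markers summed to 9.26 to 11.97 CPM in MEFD5plu and 5.10 to 6.73 CPM in MEFD5min, but also to 9.05 to 11.9 CPM in MEFD3min, where Cox8b had 1 count in all; their part in the Cox7a1 and Cox8b values was not tested.

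Ppargc1a and Ppargc1b code for PGC-1α and PGC-1β, coactivators that drive mitochondrial biogenesis and, for PGC-1α, transcription of Ucp1. Ppargc1a (ENSMUSG00000029167, chromosome 5 from 51454250 to 51567726, minus strand, 6592 bases of exon) stood at 1.34, 1.54 and 1.59 CPM in MEFD0. It stood at 0.783, 0.983 and 0.370 CPM in MEFD3min and at 10.3, 9.34 and 8.60 CPM in MEFD3plu. Its day 5 levels were 0.475, 0.818 and 0.784 CPM in MEFD5min and 4.68, 4.77 and 5.04 CPM in MEFD5plu. Treated samples were above MEFD0 and MEFD0 was above all untreated samples of days 3 and 5, with no overlap. The treated cells were higher by 3.69 on the log2 scale at day 3 (SE 0.244, adjusted p = 9.22e-10) and by 2.81 at day 5 (SE 0.250, adjusted p = 9.72e-08). Against MEFD0 the untreated cells fell by 1.04 at day 3 (adjusted p = 0.00278) and by 1.12 at day 5 (adjusted p = 0.00257). From MEFD3plu to MEFD5plu, Ppargc1a fell by 0.96 (adjusted p = 0.000509), while Ucp1 rose between the same conditions.

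The difference between the day 3 and day 5 effects on Ppargc1a was 0.88 (SE 0.360, adjusted p = 0.0526), which did not pass with edgeR. DESeq2 gave 0.91 with an adjusted p of 0.0166, and edgeR gave 1.19 with an adjusted p of 0.0118 without MEFD3min replicate 3 and 1.11 with an adjusted p of 0.0211 without MEFD5min replicate 1.

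Ppargc1b (ENSMUSG00000033871, chromosome 18 from 61298136 to 61400431, minus strand, 3990 bases of exon) stood at 3.91, 3.74 and 2.96 CPM in MEFD0. It stood at 4.70, 6.43 and 3.36 CPM in MEFD3min and at 14.8, 14.7 and 10.4 CPM in MEFD3plu. Ppargc1b was at 2.71, 2.92 and 1.32 CPM in MEFD5min and at 4.08, 3.48 and 3.32 CPM in MEFD5plu. MEFD3plu stood apart from all other samples, while MEFD0, MEFD3min and MEFD5plu overlapped each other. Ppargc1b rose with treatment at day 3, by 1.45 on the log2 scale (SE 0.245, adjusted p = 7.59e-05), and fell by 1.87 from MEFD3plu to MEFD5plu (adjusted p = 6.49e-06). At day 5 the fold change was 0.67 (SE 0.275, adjusted p = 0.0532) with edgeR and 0.61 (adjusted p = 0.0487) with DESeq2, although the samples of both conditions did not overlap. With the replicate number as a block it was 0.70 (adjusted p = 0.00459). Without MEFD5min replicate 1 or replicate 3 the edgeR value was 0.82 (adjusted p = 0.0486) or 0.85 (adjusted p = 0.0338). Day 3 minus day 5 was 0.79 (SE 0.368, adjusted p = 0.0885), and 0.77 (adjusted p = 0.0152) with the replicate block. It was 1.05 (adjusted p = 0.0190), 0.94 (adjusted p = 0.0476) and 1.13 (adjusted p = 0.00872) without MEFD3min replicate 3, MEFD3plu replicate 4 and MEFD5min replicate 4.

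Dio2, the deiodinase that turns thyroxine into active thyroid hormone inside the cell and is induced by cAMP in brown fat, was higher in treated cells on both days. Dio2 (ENSMUSG00000007682, chromosome 12 from 90724552 to 90738438, minus strand, 5815 bases of exon, of which the antisense gene Gm26512 overlaps 1.72%) stood at 0.240, 0.424 and 0.195 CPM in MEFD0. It stood at 2.13, 1.43 and 1.78 CPM in MEFD3min and at 12.4, 14.8 and 16.8 CPM in MEFD3plu. Dio2 was at 3.77, 2.84 and 4.51 CPM in MEFD5min and at 10.7, 13.1 and 13.0 CPM in MEFD5plu. The 2 treated conditions overlapped, and no other conditions did. The log2 fold change with treatment was 3.05 at day 3 (SE 0.205, adjusted p = 1.13e-09) and 1.71 at day 5 (SE 0.188, adjusted p = 1.23e-06), and the effect at day 3 was larger by 1.34 (SE 0.276, adjusted p = 0.000727).

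The smaller effect on Dio2 at day 5 went with a higher untreated level. MEFD5min exceeded MEFD3min by 1.07 on the log2 scale (adjusted p = 0.000607) and MEFD0 by 3.67 (adjusted p = 1.54e-08), while MEFD5plu and MEFD3plu differed by -0.26 (SE 0.174, adjusted p = 0.200). A fit of these samples alone gave -0.30 for the latter (adjusted p = 0.0438). In untreated culture Dio2 and Ucp1 rose and Ppargc1a fell, each by its own test against the same MEFD0 samples.

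Ebf2 and Prdm16 code for transcription factors of the brown lineage, and their levels were far apart. EBF2 marks committed precursors and recruits PPARγ to brown fat genes. Ebf2 (ENSMUSG00000022053, chromosome 14 from 67233292 to 67430918, plus strand, 6928 bases of exon) had 439, 565 and 467 counts in MEFD0, at 14.4 ± 1.14 CPM (SD, n = 3). It stood at 83.9, 91.8 and 86.6 CPM in MEFD3min and at 53.2, 53.3 and 56.6 CPM in MEFD3plu. Ebf2 was at 34.7, 23.0 and 32.6 CPM in MEFD5min and at 53.9, 61.1 and 60.3 CPM in MEFD5plu. Ebf2 was lowest at day 0 and highest in untreated cells at day 3, and only the 2 treated conditions overlapped.

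Ebf2 was lower in treated cells at day 3, with a log2 fold change of -0.69 (SE 0.116, adjusted p = 7.58e-05), and higher at day 5, with 0.95 (SE 0.118, adjusted p = 4.41e-06). The difference between the days was -1.64 (SE 0.165, adjusted p = 5.46e-07). In untreated cells Ebf2 changed in both steps, rising by 2.61 from MEFD0 to MEFD3min (adjusted p = 1.35e-11) and falling by 1.53 from MEFD3min to MEFD5min (adjusted p = 1.92e-08), while MEFD5plu and MEFD3plu differed by 0.10 (SE 0.116, adjusted p = 0.455). MEFD3min exceeded MEFD5plu by 0.58 (adjusted p = 0.000429), MEFD3plu exceeded MEFD5min by 0.85 (adjusted p = 7.68e-06), and MEFD5min exceeded MEFD0 by 1.07 (adjusted p = 1.78e-06). The antisense gene Gm10860 overlaps 6.12% of the Ebf2 exon bases, and 4.82% of its 50-base stretches also occur in transcripts of other genes.

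PRDM16 is a coregulator that holds precursors to the brown rather than the muscle or white fate. Prdm16 (ENSMUSG00000039410, chromosome 4 from 154316125 to 154636873, minus strand, 9321 bases of exon, of which the antisense gene B230104I21Rik overlaps 1.17%) was counted at 2 to 28 reads per sample. It stood at 0.549, 0.742 and 0.419 CPM in MEFD0, at 0.407, 0.365 and 0.303 CPM in MEFD3min and at 0.341, 0.376 and 0.677 CPM in MEFD3plu. At day 5 it stood at 0.223, 0.156 and 0.0811 CPM in MEFD5min and at 0.268, 0.0644 and 0.241 CPM in MEFD5plu. Treated and untreated samples overlapped on both days, and the log2 fold changes of 0.38 at day 3 (SE 0.460, adjusted p = 0.503) and 0.33 at day 5 (SE 0.575, adjusted p = 0.663) were smaller than their SE. MEFD5min differed from MEFD0 by -1.88 (SE 0.506, adjusted p = 0.00579), with no overlap between their samples. MEFD5plu differed from MEFD3plu by -1.26 (adjusted p = 0.0355), a call that was lost without MEFD3plu replicate 4 (adjusted p = 0.187), MEFD5plu replicate 3 (adjusted p = 0.158) or MEFD5plu replicate 4 (adjusted p = 0.0505).

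The remaining comparisons covered the other pairs of conditions and the difference between the effects of both days. In untreated cells at day 3 (MEFD3min/MEFD0), 3 of the 10 genes were called higher and 1 lower, where 60.0% of all genes tested were called, 31.4% higher and 28.6% lower. In MEFD5min/MEFD0, 4 were higher and 2 lower (46.4% of all genes called, 24.5% higher and 21.9% lower), and in MEFD5min/MEFD3min, 3 were higher and 2 lower (42.8%, with 21.3% and 21.5%). In MEFD5plu/MEFD3plu, 5 were higher (Ucp1, Elovl3, Cox8b, Cox7a1 and Cidea) and 3 lower (Ppargc1a, Ppargc1b and Prdm16), where 63.0% of all genes were called, 33.8% higher and 29.2% lower. For the difference between the effects of both days, 1 was higher and 3 were lower, Cidea with the limit given above (48.5% of all genes, 22.6% higher and 25.8% lower). Against MEFD0, MEFD3plu had 8 higher and none lower (63.5% of all genes, 33.9% higher and 29.7% lower) and MEFD5plu had 8 higher and 1 lower (65.0%, with 35.2% and 29.8%). In MEFD5plu/MEFD3min, 7 were higher and 1 lower (56.7%, with 31.1% and 25.7%), and in MEFD5min/MEFD3plu, 2 were higher and 7 lower (62.7%, with 31.4% and 31.2%). Several of these comparisons share samples, so their counts are not independent of each other. With 42.8% or more of all genes called in each, a call by itself does not set the 10 genes apart.

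Centred on its own mean over the 15 samples, the log2 CPM of the genes took visibly different courses. Ppargc1b and Ppargc1a were highest in MEFD3plu, at 1.55 and 2.19 above their means, and stood at -0.29 and 1.24 in MEFD5plu. Dio2 was nearly level in the treated conditions, at 2.14 and 1.88. Ucp1, Cox7a1 and Cox8b stood at -1.05, -0.83 and -0.04 in MEFD3plu and at 2.95, 2.74 and 3.13 in MEFD5plu. Elovl3 and Cidea were above their means in both treated conditions, at 1.68 and 1.70 at day 3 and 4.49 and 5.68 at day 5. This grouping was made after the values were seen and has no test.

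**Figure D3:**
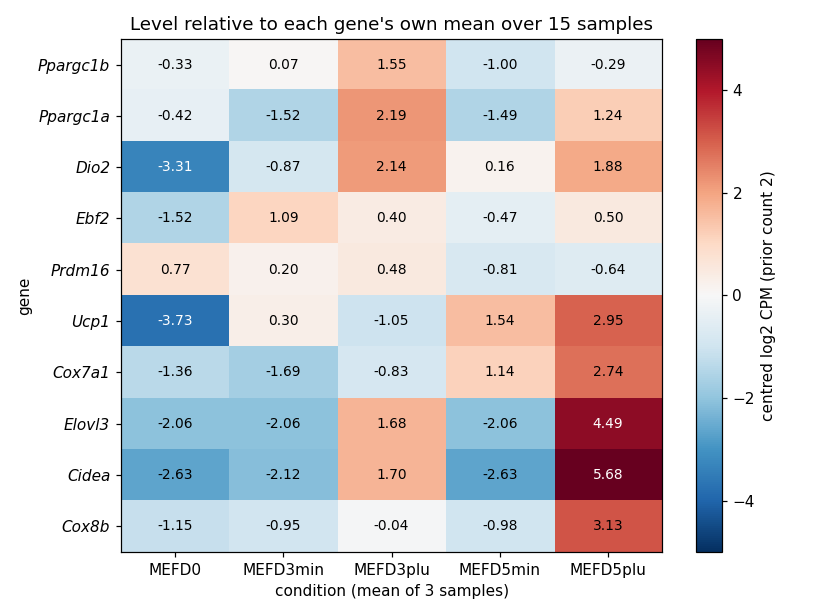
Mean log2 CPM (prior count 2) of 3 samples per condition, after subtracting the mean of each gene over the 15 samples. Genes are rows, conditions are columns, red is above and blue below the mean of the gene; the darkest red fields, 5.68 for Cidea and 4.49 for Elovl3, are in MEFD5plu.

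Per length, the members spanned a wide range of levels. In MEFD5plu the mean FPKM (± SD, n = 3) was 17.3 ± 2.06 for Cidea, 15.7 ± 2.22 for Ucp1, 13.6 ± 1.88 for Cox7a1, 8.43 ± 0.571 for Ebf2, 3.24 ± 1.14 for Cox8b, 2.85 ± 0.165 for Elovl3 and 2.11 ± 0.236 for Dio2. It was 0.909 ± 0.101 for Ppargc1b, 0.732 ± 0.0283 for Ppargc1a and 0.0205 ± 0.0119 for Prdm16. Cidea thus lay at percentile 81.3 of the genes tested and Ucp1 at 79.5, while Prdm16 lay at percentile 1.09. The general adipocyte genes were well above all of them: Adipoq was at 619 ± 69.8 FPKM and Fabp4 at 1007 ± 100.1 FPKM in the same samples. In MEFD3plu the FPKM of Ucp1 was 0.958 ± 0.253 and that of Cidea 1.18 ± 0.698, with Adipoq already at 232 ± 37.6.

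Each member was next compared with relatives of its family, per length. Of 21 relatives, 17 passed the filter, and 7 were called higher and 4 lower at day 3 and 10 higher and 3 lower at day 5. Of all genes tested, 56.1% were called at day 3 (28.0% higher, 28.0% lower) and 50.5% at day 5 (26.3% higher, 24.2% lower). Their median log2 fold change was 0.26 at day 3 and 0.38 at day 5. Ucp2, an uncoupling protein relative of many tissues, was higher in treated cells at day 3 by 1.70 (SE 0.167, adjusted p = 1.54e-07), where Ucp1 was lower, and by 1.13 at day 5 (adjusted p = 2.91e-05). Ucp1 made up 31.1% ± 9.85 (SD, n = 3) of the summed Ucp1 and Ucp2 FPKM in MEFD3min and 5.01% ± 1.67 in MEFD3plu, with no overlap, but 54.8% ± 7.18 in MEFD5min and 59.96% ± 4.71 in MEFD5plu, where the samples overlapped. Ucp3, the relative of skeletal muscle and brown fat, rose from 2 to 41 counts at day 3 (ratio 20.6, 95% exact counting interval 5.36 to 176, adjusted p = 9.76e-05) and from 1 to 246 counts at day 5 (ratio 248, interval 44.1 to 9826, adjusted p = 1.58e-07), to 0.805 ± 0.118 FPKM in MEFD5plu.

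The tissue-restricted subunits stayed minor beside their widely expressed partners. Cox8b was 0.343% ± 0.103 of the summed Cox8a and Cox8b FPKM in MEFD5plu, and Cox7a1 was 7.03% ± 0.582 of Cox7a1 and Cox7a2 there. In MEFD5min the latter share was 3.95% ± 0.788, and at day 3 it was 0.580% ± 0.314 without treatment and 0.845% ± 0.117 with it. Cox8a itself rose by 0.71 at day 5 (adjusted p = 0.000153) and Cox7a2 by 0.73 (adjusted p = 0.000773). Cidea was far below its relative Cidec, a lipid droplet protein of white and brown fat, which was at 259 ± 20.8 FPKM in MEFD3plu and 643 ± 39.3 in MEFD5plu. Cidea was 0.453% ± 0.273 of the pair in MEFD3plu and 2.64% ± 0.425 in MEFD5plu, with no overlap. Elovl3 reached 3.22% ± 0.660 of the summed Elovl3 and Elovl6 FPKM in MEFD3plu and 20.0% ± 1.80 in MEFD5plu, while Elovl6, an elongase of shorter chains, fell by 0.38 at day 3 (adjusted p = 0.000350) and by 0.59 at day 5 (adjusted p = 6.28e-06). Ppargc1a was 7.96% ± 1.53 of the summed Ppargc1a and Ppargc1b FPKM in MEFD3min, 30.3% ± 2.78 in MEFD3plu and 44.7% ± 3.51 in MEFD5plu. Ebf2 held 70.3% to 82.0% of the summed Ebf1 and Ebf2 FPKM as means over the 5 conditions. No test was run on these shares.

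**Figure D4:**
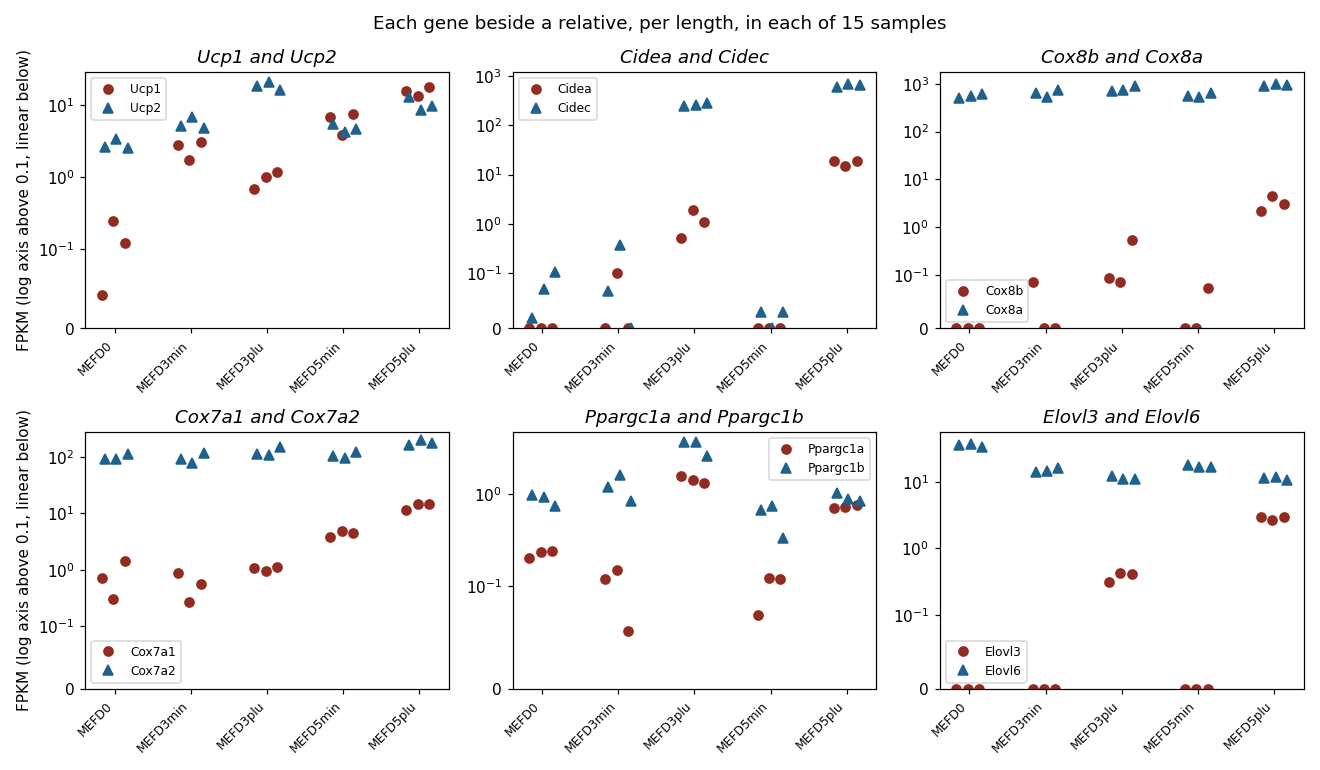
FPKM of 6 genes (circles) and a relative of each (triangles) in the 15 samples, on a vertical axis that is logarithmic above 0.1 and linear below. Ucp1 lies below Ucp2 in MEFD3plu and above it in MEFD5plu, while Cidea, Cox8b, Cox7a1 and Elovl3 lie below their relatives in every MEFD3plu and MEFD5plu sample.

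Other thermogenic genes outside the 10 were examined next. As the background for this and each further list, 56.1% of all genes were called at day 3 (28.0% higher, 28.0% lower) and 50.5% at day 5 (26.3% higher, 24.2% lower). Of 21 such genes 15 passed the filter, with 11 higher and 3 lower at day 3 and 12 higher and 1 lower at day 5, and their median log2 fold change was 1.00 and 1.06. Slc36a2, an amino acid transporter of brown fat, rose from 1 to 1397 counts at day 3 (ratio 1405, 95% exact counting interval 252 to 55540, adjusted p = 1.63e-12) and was at least 500.0-fold higher at day 5. Plin5, which ties lipid droplets to mitochondria, rose from 2 to 346 counts at day 3 (ratio 174, interval 47.8 to 1443, adjusted p = 3.67e-09) and was at least 57.3-fold higher at day 5. Pdk4, a brake on glucose oxidation, rose by 6.42 at day 3 (adjusted p = 1.13e-12), and Ppara, a receptor for fatty acids, rose from 1 to 40 counts at day 5 (ratio 40.3, interval 6.83 to 1631, adjusted p = 0.000427). P2rx5 and Acot11 were lower at day 3 by values of -1.31 (adjusted p = 3.08e-06) and -2.25 (adjusted p = 1.51e-05), and at day 5 gave 0.65 (adjusted p = 0.00212) and 0.54 (adjusted p = 0.159). Esrrg, an oestrogen-related receptor, was lower on both days, at -1.77 (adjusted p = 0.0128) and -2.37 (adjusted p = 0.00434). These 3 were chosen after their values were seen, as the members of the list that were lower at day 3. Cpt1b, Bmp8b, Otop1, Slc27a2, Ckmt2 and Cox4i2 did not pass the filter.

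Among 14 receptors and cAMP pathway genes, all tested, 6 were higher and 4 lower at day 3 and 7 higher and 1 lower at day 5, with medians of 0.60 and 0.19. Adrb3, the beta-3 adrenergic receptor of fat, rose from 1 to 105 counts at day 3 (ratio 106, 95% exact counting interval 18.5 to 4211, adjusted p = 1.43e-06). At day 5 Adrb3 rose from 0.0460 to 4.98 CPM, a log2 fold change of 6.52 (SE 0.521, adjusted p = 2.63e-08). Adrb1 rose from 3 to 28 counts at day 5 (ratio 9.40, interval 2.90 to 48.3, adjusted p = 0.0246), and Rxra, the partner of PPARγ, by 1.48 at day 3 (adjusted p = 1.96e-09). The adenosine receptor gene Adora2a was lower on both days, at -3.00 (adjusted p = 6.29e-05) and -1.48 (adjusted p = 0.00861).

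Of 15 factors of brown fat fate 11 passed the filter, with 6 higher and 1 lower at day 3 and 2 higher and 6 lower at day 5, and medians of 0.37 and -0.32. Pparg, the receptor that rosiglitazone binds, rose by 2.62 (adjusted p = 1.69e-12) at day 3 and 3.16 (adjusted p = 3.37e-13) at day 5, and Cebpb by 2.59 (adjusted p = 4.29e-11) at day 3. Bmp7, an inducer of brown fat, was lower at day 3 at -4.35 (adjusted p = 0.000214) and stood at 3 counts against 32 in untreated cells at day 5 (untreated over treated 10.6, 95% exact counting interval 3.31 to 54.0, adjusted p = 0.00823), and Foxc2 was lower at day 5 at -1.04 (adjusted p = 1.81e-06). Of 10 genes known to repress the thermogenic programme 9 were tested. At day 3, 6 of them were higher and 0 lower, among them Zfp423 (3.79, adjusted p = 7.94e-06), a keeper of white identity, Foxo1 (1.80, adjusted p = 1.06e-06) and Nrip1 (1.38, adjusted p = 4.46e-07), and the median was 0.59. At day 5, 1 was higher (Zfp423, 1.70, adjusted p = 0.0214) and 2 were lower (Rbl1 at -0.41, adjusted p = 0.000314, and Sin3a at -0.34, adjusted p = 0.00344), with a median of -0.06. Zfp423 had at most 4 counts in an untreated sample and passed the filter only through treated conditions, so it could hardly be called lower.

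Markers of beige and of white fat gave different counts. Of 8 beige markers 5 passed the filter. At day 3, 1 of these was higher (Cited1, 4.18, adjusted p = 9.54e-06) and 4 were lower, among them Tnfrsf9 (-3.43, adjusted p = 1.47e-05) and Sp100 (-5.55, adjusted p = 2.46e-11). At day 5, Sp100 was higher (1.76, adjusted p = 4.41e-06) and Hoxc9 lower (-0.52, adjusted p = 0.0274), and Tmem26, Tbx1 and Car4 were not tested. Sp100, which belongs to nuclear bodies and also responds to interferon, moved between 2.47 CPM in MEFD3plu and 189 CPM in MEFD5plu and made up most of the summed beige marker level in the latter. Of 8 white markers 6 were tested, with 5 higher and 1 lower at day 3 and 6 higher and 0 lower at day 5, and medians of 4.23 and 5.12. The marker lower at day 3 was Hoxc8, at 22.1 CPM in MEFD3plu against 32.9 CPM in MEFD3min. Lep and Tcf21 were not tested: Lep had 1 count in MEFD3plu and none in the other conditions, and Tcf21 had no count in any sample. Agt rose by 12.63 (adjusted p = 1.62e-15) and 10.61 (adjusted p = 2.39e-14), while Retn rose by 10.37 at day 3 (adjusted p = 1.21e-13) and from 1 to 17743 counts at day 5 (adjusted p = 7.56e-14). Wfdc21 rose from 1 to 66 counts at day 3 (ratio 66.4, 95% exact counting interval 11.5 to 2661, adjusted p = 3.90e-05) and from 2 to 338 at day 5 (ratio 170, interval 46.8 to 1411, adjusted p = 3.81e-07). No set test was run on any list. Several genes named from the lists, here and below, passed the filter only through treated or only through untreated conditions. Those of treated conditions included Slc36a2, Plin5, Ucp3, Ppara, Adrb3, Zfp423, Retn, Wfdc21, Adipoq, Plin1 and Cidec. Those of untreated conditions included Bmp7, Esrrg, Adora2a and Acta1. The direction of all these genes was therefore largely set by the filter.

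**Figure D5:**
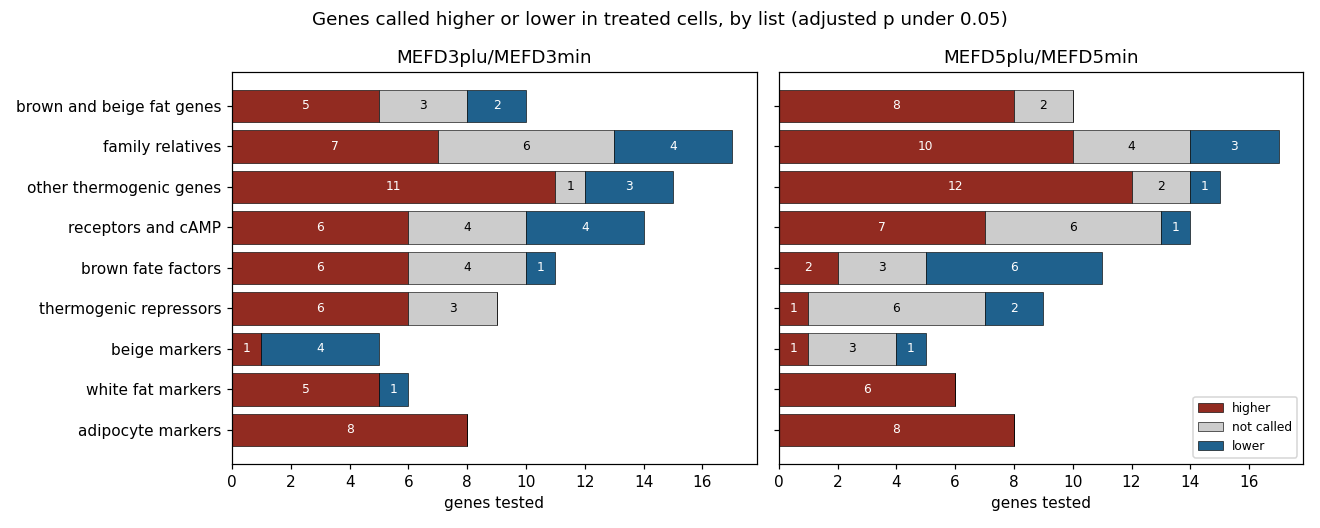
Number of genes of each list (horizontal axis) called higher, called lower or not called in treated cells at day 3 (left) and day 5 (right), among the genes of the list that passed the filter. The 10 brown and beige fat genes split into 5 higher and 2 lower at day 3 and 8 higher and none lower at day 5.

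For each member the genes nearest in course were found, as the smallest root mean square difference of centred log2 CPM over the 15 samples among the 11453 genes whose mean log2 CPM reached 1. For Ucp1 these were Psmb8 (0.81) and Slfn2 (0.83), against a median of 2.37 over all genes. Psmb8, an immunoproteasome subunit, stood at 0.566, 10.7, 1.18, 9.65 and 30.1 CPM in MEFD0, MEFD3min, MEFD3plu, MEFD5min and MEFD5plu, and so it too was lower with treatment at day 3 and higher at day 5. Slfn2 stood at 0.452, 30.9, 4.42, 17.8 and 90.1 CPM. Acaa1b, a peroxisomal thiolase, and Cp were nearest to both Cidea (0.62 and 1.41) and Elovl3 (0.70 and 0.79).

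Ppargc1a was nearest to Slc1a5 (0.32) and Mknk2 (0.43), Ppargc1b to Atp6v0a1 (0.18) and Zhx3 (0.28) and Dio2 to Fam13a (0.59) and Sgk3 (0.68). Cox7a1 was nearest to Bnip3 (0.60) and Fam162a (0.80), Cox8b to Scn7a (0.57) and Clca3a1 (0.59), Ebf2 to Rnd3 (0.25) and Spry2 (0.25) and Prdm16 to Nr2f1 (0.42) and Ptger1 (0.43). Bnip3, a mitochondrial protein, rose with Cox7a1 from 51.9 CPM in MEFD3min to 366 CPM in MEFD5min and stood at 646 CPM in MEFD5plu. The courses of Prdm16 and Cox8b rest on few counts. No gene other than Cp and Acaa1b was nearest to more than 1 member.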

How the data were processed

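RNA-Seq of 15 MEF samples (5 conditions, 3 samples each) was used. The authors aligned 100 bp paired reads to GRCm38/mm10 and deposited raw read counts per Ensembl gene, without normalization. The submitters' processing notes name TopHat2 2.1.0, HTSeq and DESeq2. The labels name a TruSeq RNA v2 kit and the study's methods a stranded mRNA kit. The annotation release, the strand setting and the handling of multiply mapped reads are not given in the sources used here, so reads of a gene and an antisense partner may not be separated.

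Identifiers were matched to GENCODE M21 (46005 of 46603 named). In R 4.3.3, edgeR 4.0.16 filtered genes (filterByExpr, 15997 kept), scaled them (TMM) and fitted all 15 samples (glmQLFit, glmQLFTest) without covariates. Benjamini-Hochberg adjustment covered all genes tested. FPKM used the union of GENCODE exons. A condition with no count was set to 3 counts per library for fold bounds, and fitted folds against such a condition are not given, except in the Cidea difference between days. Exact two-sided tests of 3 against 3 samples cannot go below p = 0.1 and were not used. The steps were tested on simulated counts.

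The genes, lists and tests were chosen with earlier results of these data known. The text names all 10 genes, family relatives, up to 3 called genes per list and day with the largest change, and the 2 genes nearest to each member. Alternatives were DESeq2 1.42.0, its size factors, library totals alone, no filter (at least 1 count), at least 10 counts in every sample, only the samples compared, a replicate block, and each sample left out. Deviations of same-numbered samples from their condition means correlated at 0.143, 0.228 and 0.36 in MEFD3plu/MEFD3min. The values were 0.0837, 0.132 and 0.18 in MEFD3min/MEFD0 and 0.124, 0.0706 and 0.11 in MEFD3plu/MEFD0. In these comparisons each value exceeded those with other numbers, so the samples may be paired, although the sources do not say what a number shares. The main fit did not pair them, and its p-values ignore such a pairing, which only the replicate block takes in. In MEFD5plu/MEFD5min they correlated at 0.0422, -0.00453 and 0.0538.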

Additional observations from a re-analysis of the deposited data

Results flagged for a closer look

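The effect of treatment differed between day 3 and day 5, by the treatment by day term of the edgeR fit, in 4 of the 10 genes, where 48.5% of all genes tested were called for the same term. It was -2.73 for Ucp1 (log2, day 3 minus day 5), with effects of -1.37 and 1.36, and -1.64 for Ebf2, with effects of -0.69 and 0.95, so both genes changed direction. For Dio2 it was 1.34, with effects of 3.05 and 1.71 in the same direction. For Cidea the fit gave -7.42, which is no estimate of size because MEFD5min had no count, and its call rests on 4 counts in MEFD3min replicate 3. Groups of 3 samples were not searched for outlying samples.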

How the results depend on the processing

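Over the settings other than leaving out samples, 532 of 554 values of single genes kept their direction and their side of the threshold, 16 passed it only under the alternative, 1 lost it and 5 turned. With samples left out, the numbers were 565 of 600, 14, 7 and 14. Values of 0 in either fit, such as those of Elovl3 between untreated conditions, were counted as kept by definition. Genes that a setting did not test were left out of these numbers. Prdm16 and Cox8b had the fewest counts of the 10 genes. When every sample had to hold 10 or more counts, only 3 of the 10 genes were tested, which alone lowered the counts of genes called to 3 in MEFD3plu/MEFD3min and MEFD3plu/MEFD0, 2 in MEFD5plu/MEFD5min, MEFD3min/MEFD0, MEFD5min/MEFD0, MEFD5min/MEFD3min, MEFD5plu/MEFD3plu and MEFD5plu/MEFD0, and 1 for the difference between days. No other setting moved a count by over 1.5 times.

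No value was called where it turned, and the cause was not tested. With library totals alone, which moved the median of all genes to -0.15 in MEFD5plu/MEFD5min and -0.115 in MEFD5plu/MEFD0 and that of the difference between days to 0.15, Ppargc1a and Cox8b in MEFD5min/MEFD3min gave 0.016 and 0.051, and Ppargc1b in MEFD5plu/MEFD0 gave -0.14. The latter was -0.023 with DESeq2 and -0.021 with its size factors. With a sample left out, turning values ranged from -0.041 to 0.75 for Prdm16 in MEFD5plu/MEFD5min, -0.36 to 0.42 for its difference between days, -0.98 to 0.22 and -0.050 to 1.10 (called at this end, without MEFD0 replicate 4, adjusted p = 0.0439) for Cox7a1 in MEFD3min/MEFD0 and MEFD3plu/MEFD0, -0.37 to 0.23 for Ppargc1a and -1.88 to 1.87 for Cox8b in MEFD5min/MEFD3min, and -0.076 to 0.11 for Ppargc1b in MEFD5plu/MEFD0. Counts of genes called ranged from 7 to 9 in MEFD3plu/MEFD3min, 8 to 9 in MEFD5plu/MEFD5min and 4 to 5 for the difference between days. Further calls lost were Prdm16 in MEFD5plu/MEFD0 without MEFD0 replicate 3 (adjusted p = 0.0540) or MEFD5plu replicate 3 (0.0581), and Cox8b in MEFD3plu/MEFD0 without MEFD3plu replicate 4 (0.102). Without a filter, Prdm16 in MEFD5plu/MEFD3plu was lost (adjusted p = 0.0754).

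The replicate block called 7 genes in MEFD3plu/MEFD3min, 9 in MEFD5plu/MEFD5min, 5 for the difference between days, 5 in MEFD3min/MEFD0, 7 in MEFD5min/MEFD0, 5 in MEFD5min/MEFD3min, 8 in MEFD5plu/MEFD3plu, 8 in MEFD3plu/MEFD0 and 9 in MEFD5plu/MEFD0. The added call was Ppargc1b in each case, at adjusted p = 0.00459 in MEFD5plu/MEFD5min, and the block changed no other call.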

Other observations

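Markers of other cell types were far below the fibroblast markers in sum, and several differed between conditions. Neural markers (4 genes, led by Tubb3, Map2 and Sox2) summed to 40.8 to 44.6 CPM in MEFD0 and 7.56 to 7.99 CPM in MEFD3plu. Tubb3 was lower in treated cells at day 3 (-2.88, adjusted p = 1.33e-07). The endothelial marker Cdh5 had no count in MEFD3plu (at least 3.80-fold lower than MEFD3min), and the endothelial list summed to at most 2.23 CPM. The epithelial marker Krt8 was lower at day 3 (2 counts against 28, adjusted p = 0.00386) and higher at day 5 (2.97, adjusted p = 0.00162), and the epithelial list had a summed level of at most 1.19 CPM.

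Of 7 fibroblast markers, 1 was higher and 5 were lower at day 3, led by Thy1 (-2.34, adjusted p = 5.93e-12), Col1a1 (-1.82, adjusted p = 2.11e-05) and Col1a2 (-1.60, adjusted p = 1.76e-06). At day 5, 2 were higher and 2 lower, with Col1a1 at -0.79 (adjusted p = 0.0195) and Col3a1 at 0.67 (adjusted p = 0.00126). In the muscle list, the fast-fibre genes Tnni2 and Actn3 were lower at day 3 (-1.78, adjusted p = 8.69e-05, and -0.54, adjusted p = 0.0220) and higher at day 5 (1.62, adjusted p = 0.000222, and 0.81, adjusted p = 0.00222), and Acta1 was lower at day 5 (-2.21, adjusted p = 0.00625). All 8 general adipocyte markers were higher on both days. Plin1, for example, rose from 2 to 16238 counts at day 3 and from 1 to 9208 counts at day 5.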
